A study of Mus musculus with 12 samples.

Results

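The 7 genes described here, of 21936 in the count table, were the liver metallothioneins Mt1 and Mt2, the exporters Slc30a1 and Slc30a10, and the importers Slc39a4, Slc39a8 and Slc39a14. They were chosen by gene symbol, as genes that bind or move zinc or manganese in the liver. RNA of whole liver was sequenced from male C57BL/6 mice (C57BL/6J in the methods), which were 6 weeks old on arrival and had all been given the liver toxin carbon tetrachloride (CCl4) at 1 mL per kg, injected 2 times a week for 8 weeks. The LFG (liver fibrosis group) mice were sacrificed when CCl4 ended. The REG (regression group) mice then received 200 µL of PBS 2 times a week for 4 weeks without CCl4, and the hADMSCs-Exo mice received 250 µg of exosomes from human adipose-derived mesenchymal stem cells in the same volume on the same schedule. Each group had 3 libraries. Mice without CCl4 are not part of these comparisons, so no level below is a healthy level, and REG and hADMSCs-Exo differ from LFG in time as well as treatment. The count columns of the exosome group carry the name MSC_E, which was read as that group and not as the group given the cells themselves, whose 3 samples were not analysed here.

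Metallothioneins are small cysteine-rich proteins that bind zinc and copper in the cytosol, and in the liver their transcription is raised by zinc through the factor MTF1, by glucocorticoids and by the acute phase signal IL-6. The ZnT proteins, encoded by the Slc30 genes, move metal out of the cytosol, and ZnT1 at the plasma membrane is itself a zinc-induced target of MTF1. The ZIP proteins, encoded by the Slc39 genes, move metal into the cytosol, and ZIP14, ZIP8 and ZnT10 take part in the handling of manganese by the liver.

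The libraries held 13837445 to 19840917 counted reads, and between 13924 and 15248 genes had at least 1 read. The library LFG 3 stood apart from all others. On the first principal component of log2 CPM (reads of a gene over the scaled library total), which carried 48.7% of the variance, LFG 3 lay at 96.7, the other LFG libraries at -79.0 and -56.2, and the REG and hADMSCs-Exo libraries between -17.7 and 17.1. It also went against its fibrosis label. The fibrillar collagen genes Col1a1 and Col3a1 were at 2.68 and 7.69 CPM in LFG 3, against 259 and 550 CPM in LFG 1 and 128 and 328 CPM in LFG 2, and the 7 stellate cell and fibroblast markers summed to 55.2 CPM, the lowest of the 9 libraries. LFG 3 below means the library labelled so, and the fits of the members and of the gene lists against LFG are therefore given with and without it. Hepatocyte markers summed to between 93740 and 167400 CPM in LFG, 180200 and 187200 in REG and 142100 and 155100 in hADMSCs-Exo, with all 7 of them above 0 in at least 1 library, and 1 of 4 intestinal markers and 3 of 6 pancreatic acinar markers were at 0 in all 9 libraries. In bulk tissue, fewer cells of a type and less RNA per cell cannot be told apart.

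The metallothioneins gave the most unlike pair of levels among the 7 genes. Mt1 and Mt2 are neighbours on mouse chromosome 8 of GRCm38, both on the plus strand, Mt2 at chr8:94172664-94173568 and Mt1 at chr8:94179082-94180327. Their coding sequences are shown because similar copies can lose reads to each other in counting. Both run to 186 bases in GENCODE, and 148 of these (79.6%) are the same in both genes. The 38 positions at which they differ are in capitals.
Mt1: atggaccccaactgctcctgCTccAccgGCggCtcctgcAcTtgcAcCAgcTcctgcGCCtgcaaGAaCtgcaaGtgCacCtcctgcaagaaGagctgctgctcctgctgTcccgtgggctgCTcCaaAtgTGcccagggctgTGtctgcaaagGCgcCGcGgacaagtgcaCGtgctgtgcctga
Mt2: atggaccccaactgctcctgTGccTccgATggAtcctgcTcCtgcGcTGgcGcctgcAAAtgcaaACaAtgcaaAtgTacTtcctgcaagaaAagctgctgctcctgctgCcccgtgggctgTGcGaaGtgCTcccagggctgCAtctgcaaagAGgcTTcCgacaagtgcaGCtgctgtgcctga
The longest run of bases that they share is 20, in the coding sequences as in the whole transcripts of 549 and 511 bases.

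Mt2 was listed with 0 counts in 8 libraries and 1 count in hADMSCs-Exo 2, while Mt1 held 34629 counts over the same libraries. A count of 0 allows up to 3 counts, or 0.126 to 0.268 CPM depending on the library, a limit that covers counting error only. Mt2 did not pass the filter on low counts, so it entered no test and no fold change is given. In GENCODE, 432 of the 588 exonic bases of Mt2 (73.5%) lie inside the single exon of Gm45774, an antisense gene on the minus strand at chr8:94170748-94173412. Mt1 shares no exonic base with another annotated gene. Gm45774 is not among the genes of the count table, and whether reads were counted by strand is not given in the sources used here. Of 15387 genes with no exonic overlap 38.0% had under 10 counts over the 9 libraries, against 65.0% of 628 genes with at least 50% of their exonic bases overlapped on either strand and 50.5% of 198 genes overlapped to that extent on the opposite strand. The part of the overlap in the counts of Mt2 was not tested, and the counts of Mt2 are uncertain. A further gene of the Slc39 family, Slc39a7, which encodes an importer of the endoplasmic reticulum and Golgi, was listed with 15 counts in all and shares 80.7% of its exonic bases with Gm20427 on the same strand.

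**Figure D1:**
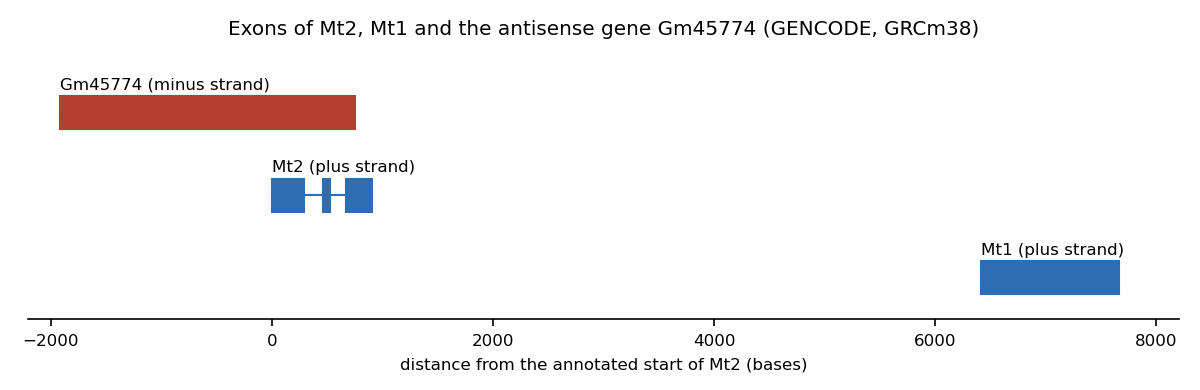
Exons (boxes) of Gm45774, Mt2 and Mt1 by distance in bases from the annotated start of Mt2. The box of Gm45774 spans -1916 to 748 and covers most of the exons of Mt2, which end at 904, whereas Mt1 starts at 6418 and lies clear of it.

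Mt1 had its lowest mean in LFG and its highest single value in 1 hADMSCs-Exo library. On the CPM scale it stood at 46.6, 161 and 76.5 in LFG 1 to 3, at 288, 297 and 152 in REG 1 to 3, and at 236, 269 and 528 in hADMSCs-Exo 1 to 3. All 3 hADMSCs-Exo libraries lay above all 3 LFG libraries, REG 3 lay below LFG 2, and hADMSCs-Exo 3 stood alone at the top. The group means were 94.8 ± 59.6 in LFG, 246 ± 81.0 in REG and 344 ± 160 in hADMSCs-Exo (CPM, SD, n = 3).

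The fitted log2 fold change of Mt1 was 1.85 (SE 0.54) for hADMSCs-Exo over LFG, with an unadjusted p of 0.0109 and, by edgeR's quasi-likelihood test corrected over all genes by Benjamini-Hochberg, an adjusted p of 0.805. For REG over LFG it was 1.39 (SE 0.50), with an unadjusted p of 0.0270 and an adjusted p of 0.394 by the same test. Neither passed the threshold. Between hADMSCs-Exo and REG the difference was 0.48 (SE 0.36, adjusted p = 0.668 by edgeR), and without hADMSCs-Exo 3 it was 0.03. Without LFG 3 the differences from LFG were 1.75 for hADMSCs-Exo (adjusted p = 0.107, edgeR) and 1.29 for REG (adjusted p = 0.118, edgeR), again short of the threshold. LFG 2 held the highest Mt1 of its group, and with LFG 2 and LFG 3 both left out the values were 2.88 (adjusted p = 0.0405, edgeR) and 2.44 (adjusted p = 0.0222, edgeR), on 1 LFG library assumed to vary like the other group. With LFG 1 and LFG 3 both left out they were 1.10 and 0.65.

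**Figure D2:**
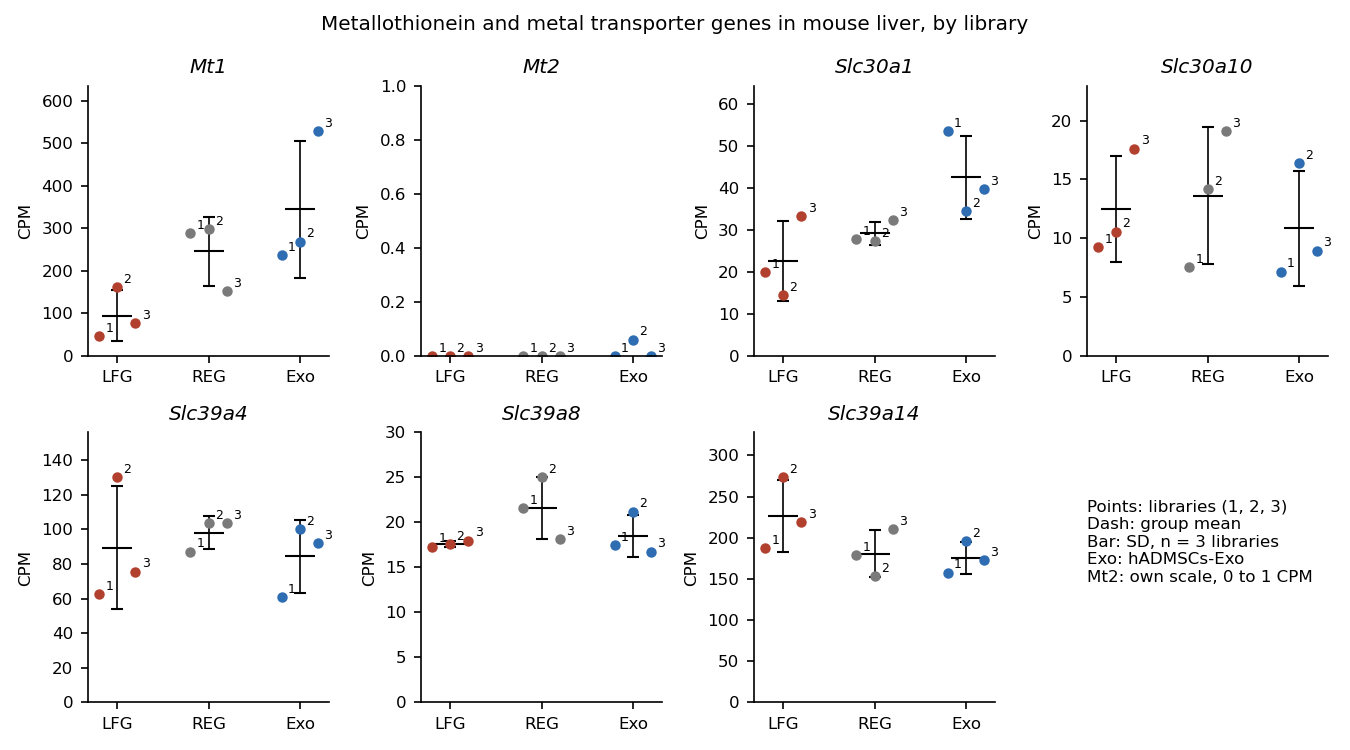
CPM of each of the 7 genes by library, with the group mean (dash) and SD (bar, n = 3), each panel on its own scale. Mt1 reaches 528 in hADMSCs-Exo 3, the 3 hADMSCs-Exo libraries of Slc30a1 lie at or above 34.4 and all other libraries at or below 33.2, and Mt2 stays at or near 0.

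Genes that mark 2 signals known to induce Mt1, the acute phase and glucocorticoids, also differed between the libraries. The 19 acute phase and IL-6 genes summed to 59810 CPM in hADMSCs-Exo 3, the library with the highest Mt1, and to between 26400 and 41300 CPM in the other REG and hADMSCs-Exo libraries. In LFG they summed to between 18480 and 25250 CPM, below every library of the other groups. For LFG 3 that separation rested on the 3 fibrinogen chains. The other 16 genes summed to 11100, 11800 and 13630 CPM in LFG 1 to 3 and to between 12330 and 17370 CPM in REG. In hADMSCs-Exo 1 to 3 they summed to 14240, 13300 and 36200 CPM. LFG 3 thus overlapped both other groups, while LFG 1 and LFG 2 stayed below every library of REG and hADMSCs-Exo. Saa2, which encodes an acute phase serum amyloid A protein, was at 3378 CPM in hADMSCs-Exo 3 and between 82.2 and 590.2 CPM elsewhere. The iron-sequestering lipocalin Lcn2 was at 909 CPM in hADMSCs-Exo 3 and between 14.5 and 260.0 CPM elsewhere. Not every gene of the list was highest in that library. Socs3 was at 15.57 CPM there, below all 3 REG libraries (18.35 to 23.84 CPM), and Hamp was at 95.28 CPM there and between 3.697 and 593.5 CPM elsewhere. The 10 glucocorticoid response genes summed to between 4280 and 9673 CPM in LFG, between 2673 and 3751 in REG and between 2407 and 7654 in hADMSCs-Exo, so that REG lay below every LFG library. Neutrophil markers (4 genes) summed to 7.07 to 11.4 CPM in LFG, 6.37 to 39.2 in REG and 21.9 to 39.4 in hADMSCs-Exo, with none of the 4 at 0 in all libraries. Stellate cell and fibroblast markers (7 genes) summed to 1154, 791 and 55.2 CPM in LFG 1 to 3, 184 to 332 in REG and 73.0 to 195 in hADMSCs-Exo. Lymphocyte markers (6 genes, none at 0 in all libraries) summed to 3.49 to 8.95 CPM in LFG, 7.75 to 16.4 in REG and 15.2 to 16.1 in hADMSCs-Exo, so that hADMSCs-Exo lay above LFG for these and for the neutrophil markers. The part of these genes in the level of Mt1 was not tested.

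Gene by gene, 18 of the 19 acute phase genes were tested and 0 were called with all libraries by edgeR. An unadjusted p under 0.05 on the high side was reached by 4 of them for hADMSCs-Exo over LFG, by 4 for REG over LFG and by 2 for hADMSCs-Exo over REG, with median log2 fold changes of 0.76, 0.35 and 0.37 beside -0.06, -0.07 and 0.01 over all genes. Without LFG 3 the medians against LFG were 0.97 for hADMSCs-Exo and 0.33 for REG, with 0 calls for the first and 3 for the second, the fibrinogen chains Fga (1.36), Fgb (1.40) and Fgg (1.31). All 10 glucocorticoid response genes were tested, with 0 calls by edgeR with all libraries. For REG over LFG 6 had an unadjusted p under 0.05 on the low side and the median was -1.20. Leaving out LFG 3 gave 2 calls for REG over LFG, the kinase gene Sgk1 (-1.58) and Tsc22d3 (-1.24), with a median of -1.04, and 0 calls for hADMSCs-Exo over LFG with a median of -0.32. In the latter comparison 0 genes had an unadjusted p under 0.05 with all libraries and the median was -0.64. For hADMSCs-Exo over REG 2 had one on the high side, the glucocorticoid-induced Fkbp5 (0.77) and Tsc22d3 (1.07), and the median was 0.66.

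**Figure D3:**
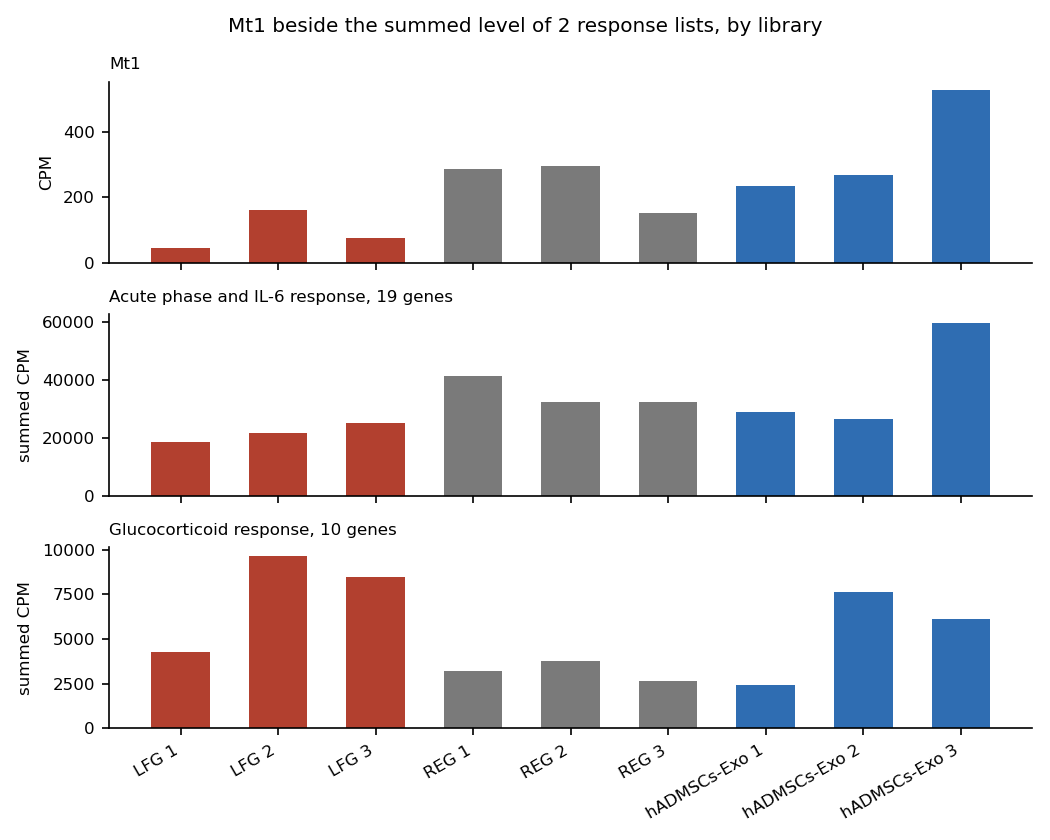
Mt1 (CPM) and the summed CPM of the 19 acute phase and 10 glucocorticoid response genes in each of the 9 libraries, as bars from 0. hADMSCs-Exo 3 has the highest bar for Mt1 (528) and for the acute phase genes (59810), whereas the highest bar for the glucocorticoid genes is LFG 2 (9673).

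Slc30a1, which encodes the plasma membrane zinc exporter ZnT1, was higher in every hADMSCs-Exo liver than in any other. It stood at 19.9, 14.5 and 33.2 CPM in LFG 1 to 3, at 27.8, 27.4 and 32.3 CPM in REG 1 to 3, and at 53.5, 34.4 and 39.6 CPM in hADMSCs-Exo 1 to 3. LFG 3 was the highest library outside hADMSCs-Exo and lay above all 3 REG libraries, while LFG 1 and LFG 2 were the lowest of all. The means were 22.5 ± 9.60, 29.2 ± 2.75 and 42.5 ± 9.86 CPM in LFG, REG and hADMSCs-Exo (SD, n = 3).

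Over REG, the log2 fold change of Slc30a1 in hADMSCs-Exo was 0.54 (SE 0.18), with an unadjusted p of 0.0181 and an adjusted p of 0.428 by the same edgeR test. Without hADMSCs-Exo 1 it was 0.34. The exact permutation test on log2 CPM gave a two-sided p of 0.1, the smallest that 3 against 3 libraries allow. Over LFG it was 0.91 (SE 0.33, unadjusted p = 0.0299, adjusted p = 0.805 by edgeR). Without LFG 3 this value became 1.31 (SE 0.25, adjusted p = 0.0317 by edgeR) and passed both thresholds, which were 0.05 for the adjusted p and 1 for the size of the log2 fold change. That call was also made with hADMSCs-Exo 1 left out beside LFG 3 (1.12, adjusted p = 0.0315, edgeR). It was lost with LFG 1, LFG 2, hADMSCs-Exo 2 or hADMSCs-Exo 3 left out beside LFG 3, where the adjusted p by edgeR was 0.118, 0.0947, 0.0521 and 0.108 and the log2 fold change 1.56, 1.09, 1.45 and 1.35. For REG over LFG the value was 0.38 (SE 0.32, adjusted p = 0.660, edgeR), and without LFG 3 it was 0.80 (SE 0.20, adjusted p = 0.0365, edgeR), under the limit on fold change. With LFG 2 left out in place of LFG 3 the value of REG over LFG was 0.14.

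Cell type markers also differed between the groups in which Slc30a1 did not overlap. For hADMSCs-Exo over REG, 6 of 7 stellate cell and fibroblast markers had an unadjusted p under 0.05 on the low side (median log2 fold change -1.19, 0 called by edgeR), and the hepatocyte marker sums of hADMSCs-Exo lay below those of REG. The sum is mostly albumin (Alb, 90050 to 107000 CPM against 132100 to 139500), and of the 7 hepatocyte markers 4 were on the high side and 3 on the low side (median 0.02), with an unadjusted p under 0.05 for Cyp2e1 (0.67) and Hnf4a (0.43), both on the high side. For hADMSCs-Exo over LFG an unadjusted p under 0.05 was reached by 5 of 7 stellate markers on the low side (median -2.41), and by 2 of 6 lymphocyte markers (median 1.10) and the 3 tested of 4 neutrophil markers (median 1.82) on the high side, with 0 called. With LFG 3 left out, 6 stellate markers were called lower (median -2.92), 2 neutrophil markers were called higher (median 1.70), and 0 lymphocyte markers were called (median 0.93). In that setting 1 of 6 macrophage markers (median -0.77) and 1 of 5 cholangiocyte markers (median -1.37) were also called lower, and 1 of 7 hepatocyte markers (median 0.22) higher. Their part in the level of Slc30a1 was not tested.

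Because Slc30a1 was the one member whose hADMSCs-Exo libraries stood clear of both other groups, the bases 250 to 21 before its RefSeq start (GRCm38.p6, plus strand, chr1:191906531-191906760) are shown. Capitals mark a match to the core of the metal response element, searched as TGCACNC or TGCGCNC on both strands, here on the minus strand 43 to 37 bases before the start.
Slc30a1: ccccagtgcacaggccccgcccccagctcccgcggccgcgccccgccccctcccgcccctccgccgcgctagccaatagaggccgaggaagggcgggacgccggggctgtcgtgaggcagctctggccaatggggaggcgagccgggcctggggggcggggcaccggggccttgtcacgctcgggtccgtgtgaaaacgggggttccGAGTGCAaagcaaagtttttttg
The motif was counted in the 250 bases before each RefSeq start. Of 32851 such windows, 21.4% held at least 1 match, 5.17% at least 2 and 1.26% at least 3. Slc30a1 held 1 match, Mt2 held 3, and Slc30a10 held 3, of which 2 overlap on opposite strands. Mt1 held 1, which begins 23 bases before the start, and its window ends before further annotated transcript starts of that gene. Of the 2 starts of Slc39a8 1 held a match and 1 held none. Promoter windows for Slc39a4 and Slc39a14 were not used here.

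Slc30a10, which encodes the manganese exporter ZnT10, varied more within groups than between them. Its levels were 9.27, 10.6 and 17.6 CPM in LFG, 7.52, 14.2 and 19.1 CPM in REG, and 7.17, 16.4 and 8.95 CPM in hADMSCs-Exo, in the order of the library numbers. Each group held at least 1 library below 10 CPM, and all 3 groups overlapped. The log2 fold changes were -0.33 (SE 0.39) for hADMSCs-Exo over REG, -0.20 (SE 0.40) for hADMSCs-Exo over LFG and 0.13 (SE 0.40) for REG over LFG, with adjusted p of 0.800, 0.957 and 0.920 by edgeR. With 1 library left out, the value of hADMSCs-Exo over REG ran from -0.76 to -0.0024. Without LFG 3 the values against LFG were 0.14 and 0.50, so the sign of the first of these depended on that library. Of its exonic bases 9.13% are shared with Gm2061 on the opposite strand, and of those of Slc30a1 8.92% with 1700034H15Rik.

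Of the importers, Slc39a14 encodes ZIP14, which brings manganese, zinc and iron not bound to transferrin into hepatocytes. It measured 187, 273 and 219 CPM in LFG, 179, 153 and 210 CPM in REG, and 158, 196 and 173 CPM in hADMSCs-Exo, in library order. The highest 2 libraries were LFG 2 and LFG 3, and the groups overlapped in each comparison. The log2 fold changes were -0.38 (SE 0.23) for hADMSCs-Exo over LFG, -0.31 (SE 0.24) for REG over LFG and -0.05 (SE 0.16) for hADMSCs-Exo over REG, with adjusted p of 0.833, 0.635 and 0.941 by edgeR. Without LFG 3 the values against LFG were -0.38 and -0.30 (adjusted p = 0.302 and 0.367, edgeR).

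Slc39a8 encodes ZIP8, an importer of manganese and zinc. It was nearly level in LFG, at 17.3, 17.6 and 18.0 CPM, and measured 21.6, 25.0 and 18.2 CPM in REG and 17.5, 21.2 and 16.8 CPM in hADMSCs-Exo. The lowest REG library lay just above the highest LFG library, so that these groups did not overlap, whereas hADMSCs-Exo overlapped both. The log2 fold change of REG over LFG was 0.30 (SE 0.19, adjusted p = 0.565 by edgeR), and those of hADMSCs-Exo were -0.22 (SE 0.17) over REG and 0.06 (SE 0.18) over LFG. Leaving out LFG 3 gave 0.35 for REG over LFG and 0.10 for hADMSCs-Exo over LFG (adjusted p = 0.220 and 0.762, edgeR).

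Slc39a4 encodes ZIP4, known best as the importer of dietary zinc in the intestine. In these livers it measured 62.8, 130.0 and 75.7 CPM in LFG, 87.2, 103.8 and 103.6 CPM in REG, and 60.6, 100.4 and 92.1 CPM in hADMSCs-Exo. LFG 2 was the highest library and hADMSCs-Exo 1 the lowest, and every pair of groups overlapped. Its log2 fold changes were -0.22 (SE 0.19) for hADMSCs-Exo over REG, -0.09 (SE 0.33) for hADMSCs-Exo over LFG and 0.15 (SE 0.29) for REG over LFG, with adjusted p of 0.720, 0.974 and 0.869 by edgeR. With LFG 3 left out, the values against LFG were -0.18 and 0.07. The 4 markers of intestine summed to between 20.97 and 94.3 CPM in LFG, 26.9 and 75.6 in REG and 29.0 and 37.1 in hADMSCs-Exo, and their part in Slc39a4 was not tested, with the intestinal factor Cdx2 at 0 in all 9 libraries.

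**Figure D4:**
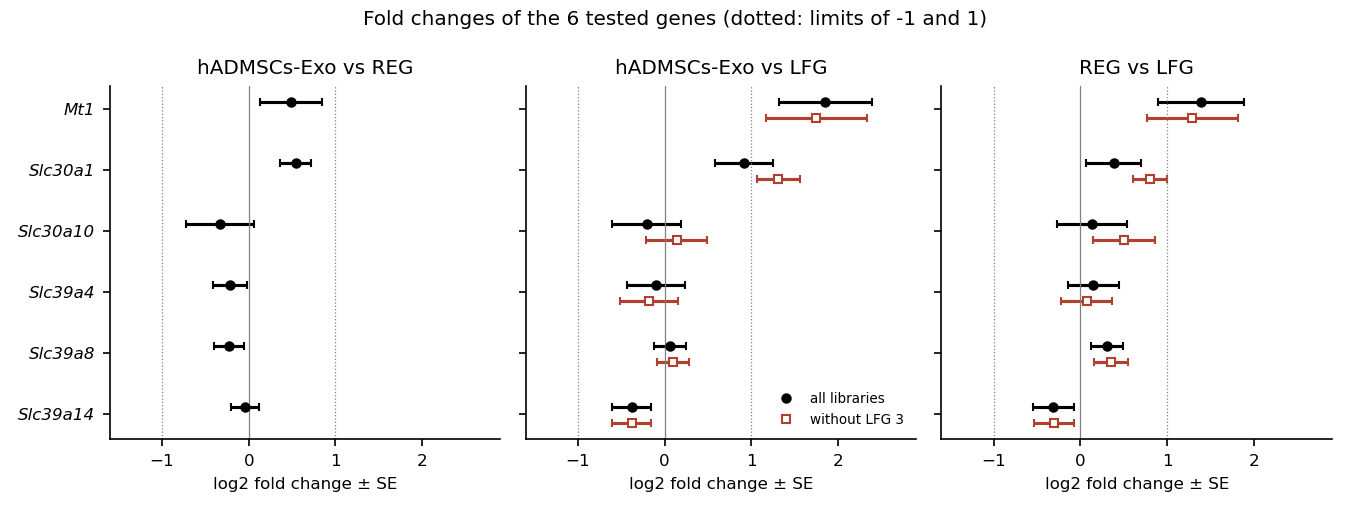
Log2 fold changes with SE of the 6 tested genes in the 3 comparisons (3 against 3 libraries), with all libraries (filled) and without LFG 3 (open), and dotted lines at the limits of -1 and 1. Mt1 lies beyond 1 against LFG in both settings, Slc30a1 passes 1 only for hADMSCs-Exo over LFG without LFG 3, and the other 4 genes lie between -0.38 and 0.50.

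Counted together, 6 of the 7 genes were tested in each comparison and 0 were called with all libraries, by edgeR, by DESeq2 or by limma with voom and quality weights. Among all genes tested by edgeR, 0.00811% were called for hADMSCs-Exo over REG, 0% for hADMSCs-Exo over LFG and 0% for REG over LFG. An unadjusted p under 0.05 was reached by 1 member for hADMSCs-Exo over REG (Slc30a1, against 10.0% of all genes), by 2 for hADMSCs-Exo over LFG (Mt1 and Slc30a1, against 5.98%) and by 1 for REG over LFG (Mt1, against 11.3%). The groups did not overlap for 1 member in the first comparison (15.5% of all genes), for 2 in the second (12.3%) and for 1 in the third (Slc39a8, 19.0%). Without LFG 3 the background was far higher. Then 5.97% of all genes were called for hADMSCs-Exo over LFG and 28.5% had an unadjusted p under 0.05, with 1 and 2 members among them, and for REG over LFG 10.7% and 37.3%, with 0 and 2 members. The call of Slc30a1 without LFG 3 was thus 1 of 773. With 6 members tested, these counts are a description and no test of the members as a set. The 2 comparisons with LFG share their LFG libraries, and those with REG or with hADMSCs-Exo likewise share the libraries of that group.

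With library totals in place of TMM factors, the median log2 fold change of all genes moved from -0.07 to -0.27 for REG over LFG and from -0.06 to -0.18 for hADMSCs-Exo over LFG. Under that scaling Mt1 was at 1.21 and 1.74 and Slc30a1 at 0.24 and 0.85 in these comparisons. The sign turned for Slc39a4 in REG over LFG (-0.051), for Slc39a8 in hADMSCs-Exo over LFG (-0.063) and for Slc39a14 in hADMSCs-Exo over REG (0.014).

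Per kilobase of gene length, the order of the 7 genes over the 9 libraries was Mt1 (mean 183 CPM per kilobase), Slc39a4 (29.2), Slc39a14 (18.4), Slc30a1 (5.99), Slc39a8 (2.51), Slc30a10 (1.89) and Mt2 (0.0114). Each gene exceeded the next in 9 of 9 libraries except Slc39a8, which exceeded Slc30a10 in 7. The ranges of neighbours over all libraries overlapped except between Slc39a14 and Slc30a1 and between Slc30a10 and Mt2. Among the 26 genes of both transporter families with Mt1 and Mt2, ubiquitous Slc39a1 (27.8 CPM per kilobase), an importer of the plasma membrane, had a mean over the 9 libraries between those of Slc39a4 and Slc39a14. In hADMSCs-Exo its mean lay above that of Slc39a4 (30.5 against 27.2 CPM per kilobase). The length of Mt1 in the table, 1246 bases, is that of its whole span as 1 merged exon, so its level per kilobase of a spliced transcript would be higher.

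**Figure D5:**
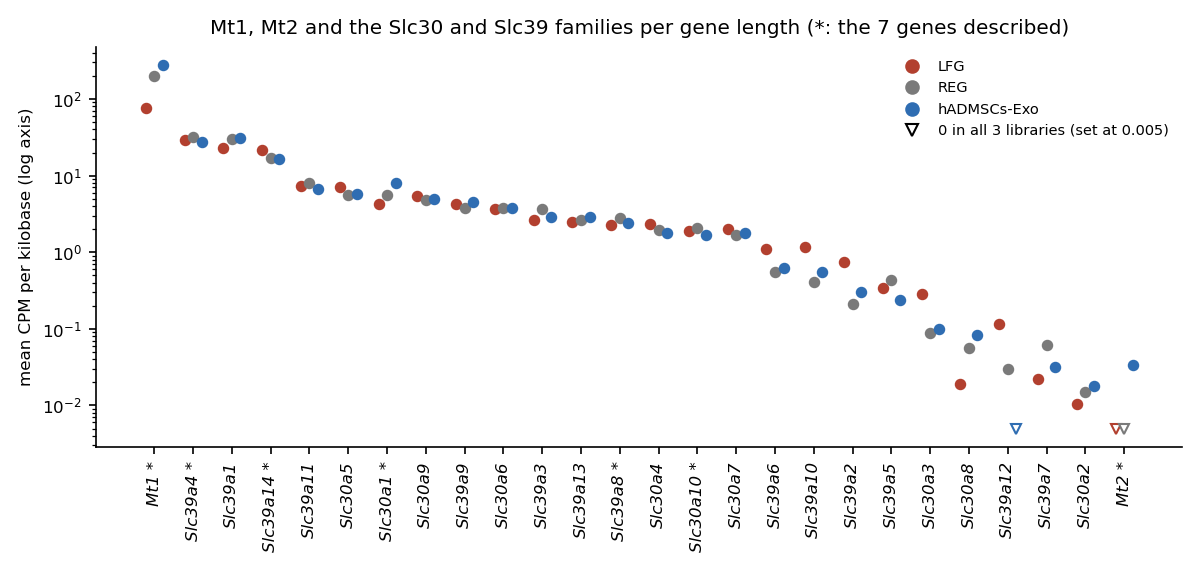
Mean CPM per kilobase of gene length (log axis) in LFG, REG and hADMSCs-Exo for the 26 genes, in order of their mean over the 9 libraries, with the 7 genes described marked by an asterisk. Mt1 is at the top in each group (76.1, 197 and 276), and the position of Mt2 at the bottom rests on 1 count.

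Other genes of metal handling showed 0 calls with all libraries by edgeR. Of 8 other ZnT exporters 5 were tested, and none had an unadjusted p under 0.05. Their median log2 fold changes were 0.02, -0.19 and -0.24 for hADMSCs-Exo over REG, hADMSCs-Exo over LFG and REG over LFG, beside 0.01, -0.06 and -0.07 over all genes. Slc30a5, a zinc transporter of the early secretory pathway, did not overlap between REG (38.1 to 42.1 CPM) and LFG (47.7 to 56.1 CPM), at a log2 fold change of -0.35 (SE 0.15). Against LFG, hADMSCs-Exo did not overlap for Slc30a5 (-0.34) or for Slc30a4 (-0.39), a zinc transporter of endosomes and the Golgi. With LFG 3 left out the medians of these 5 genes against LFG were -0.25 for hADMSCs-Exo and -0.29 for REG, with 0 calls and 1 unadjusted p under 0.05 in each, that of Slc30a4 for hADMSCs-Exo (-0.46, adjusted p = 0.164 by edgeR) and that of Slc30a5 for REG (-0.38, adjusted p = 0.103 by edgeR). Slc30a5 was then at -0.38 for hADMSCs-Exo as well.

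Of 11 other ZIP importers 9 were tested, with 1 unadjusted p under 0.05 in each comparison, each on the low side. Slc39a10, a plasma membrane zinc importer, measured 10.2, 7.16 and 4.11 CPM in LFG and 2.83, 2.03 and 2.65 CPM in REG, at a log2 fold change of -1.50 (SE 0.40, adjusted p = 0.323 by edgeR). Without LFG 3 it was -1.75 (SE 0.29, adjusted p = 0.0159 by edgeR), past both thresholds. In hADMSCs-Exo it measured 2.31, 5.06 and 2.65 CPM. Slc39a6, of the same branch of the family, was at -0.85 (SE 0.36) for hADMSCs-Exo over LFG and Slc39a3 at -0.36 (SE 0.14) for hADMSCs-Exo over REG, with adjusted p of 0.805 and 0.468 by edgeR. Groups also stood apart from LFG for Slc39a1 (0.42 for REG and 0.41 for hADMSCs-Exo), Slc39a3 (0.50 for REG) and Slc39a6 (-1.004 for REG). The median of the tested ZIP genes was 0.12, -0.17 and 0.11 in the order of comparisons above. With LFG 3 left out it was -0.09 for hADMSCs-Exo over LFG and 0.05 for REG over LFG, with 2 unadjusted p under 0.05 in each, those of Slc39a6 and Slc39a10. Slc39a6 was then at -1.02 for hADMSCs-Exo and -1.18 for REG (adjusted p = 0.0742 and 0.0870, edgeR), Slc39a1 at 0.24 and 0.25, and Slc39a3 at -0.028 and 0.36.

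Mtf1, which encodes the zinc-sensing factor, ranged from 11.5 to 16.8 CPM over the 9 libraries and its groups overlapped, while Mt3 and Mt4 were at 0 in all of them. All 10 genes of copper handling and divalent metal transport were tested, with 0 unadjusted p under 0.05 in each comparison and medians of 0.06, -0.03 and -0.26 in the same order. Atp7b, the copper exporter of hepatocytes, was at 20.2 to 22.5 CPM in LFG, 23.6 to 37.3 in REG and 26.2 to 30.6 in hADMSCs-Exo, so that both later groups lay above LFG, at log2 fold changes of 0.43 and 0.39. Slc11a2, the divalent metal transporter DMT1, also stood apart between REG and LFG (-0.36). The copper exporter Atp7a was called for REG over LFG without LFG 3 (-1.94, adjusted p = 0.0192 by edgeR). In that setting 3 of the 10 genes had an unadjusted p under 0.05 for hADMSCs-Exo over LFG and 4 for REG over LFG, with medians of 0.19 and 0.02. Atp7b was then at 0.45 for hADMSCs-Exo and 0.51 for REG, and Slc11a2 at -0.44 for REG. Of 8 zinc or manganese enzymes only Glul, a manganese-dependent glutamine synthetase, had an unadjusted p under 0.05 with all libraries (hADMSCs-Exo over REG, 0.61, SE 0.22, adjusted p = 0.445 by edgeR). Glul also marks LFG 3, where it was at 1637 CPM against 99.5 and 167 CPM in the other LFG libraries. Without LFG 3 it rose by 3.02 in hADMSCs-Exo and by 2.44 in REG on the log2 scale (adjusted p = 0.0185 and 0.0119 by edgeR). The copper and zinc superoxide dismutase Sod1 was called for REG over LFG in that setting (1.04, adjusted p = 0.0332 by edgeR), and was at 1411 CPM in LFG 3 against 296 and 414 CPM in the other LFG libraries. The median of the 8 enzymes was -0.03, 0.10 and 0.03 with all libraries, and 0.57 and 0.58 for hADMSCs-Exo and REG over LFG without LFG 3. With all libraries, groups stood apart for Sod2 (hADMSCs-Exo over REG, 0.18) and Pcx (REG over LFG, 0.49, and 0.50 without LFG 3).

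The levels of the members were also compared with each other. Over the 9 libraries, which mix the 3 groups, none of the 15 pairs of the 6 tested genes reached an unadjusted p of 0.05 for Pearson's r of log2 CPM by the exact permutation test. Mt1 and Slc30a1, both known zinc targets, had r = 0.43 and Spearman's rho = 0.32 (exact permutation p = 0.248 and 0.410, adjusted 0.548 and 0.637 over 15 pairs), and r = 0.43 without the 2 libraries farthest from the median of Mt1. By r the pair farthest from 0 was Slc30a1 with Slc39a14, at r = -0.63 and rho = -0.33 (exact permutation p = 0.0728 and 0.385, adjusted 0.548 and 0.637). Without the 2 libraries farthest from the median of Slc30a1 it stood at 0.19, so it rested on those libraries. By rho it was Mt1 with Slc39a14, at rho = -0.63 and r = -0.41 (exact permutation p = 0.0760 and 0.274, adjusted 0.637 and 0.548), and r = -0.63 without the 2 libraries farthest from the median of Mt1.

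The genes whose log2 CPM ran most like each member over the 9 libraries, by Pearson's r and as a description only, were Srebf2 (0.97), Wnt5b (0.95) and Hrg (0.94) for Mt1. For Slc30a1 they were Zfp747 (0.97), Esrra (0.96) and AI661453 (0.95), for Slc30a10 Btbd1 (0.96), Mob4 (0.95) and Nt5dc1 (0.93), and for Slc39a4 Fam117a (0.93), Clic5 (0.92) and Dhcr7 (0.91). For Slc39a8 they were Kat5 (0.92), Zfp772 (0.87) and Gpr19 (0.87), and for Slc39a14 Hps5 (0.96), Lpin1 (0.94) and Slc25a32 (0.94). Each was picked as the highest among 12760 genes, so a high r is what such a search returns.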

How the data were processed

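Libraries were made with an NEBNext Ultra kit from Trizol RNA and sequenced on an Illumina NovaSeq. The submitters' processing notes name cutadapt 1.15, HISAT2 2.0.5, HTSeq 0.9.1, DESeq 1.30.0 and GRCm38. The counting mode and the use of strand are not given in the sources used here. The authors deposited raw counts per gene, FPKM, and gene lengths. FPKM deposited by the authors equalled counts scaled by length and library total (relative difference at most 9.19e-07) and served for that check only. The sources used here give 3 samples a group without stating that each is a separate mouse, so p-values measure the spread between these samples.

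CPM used TMM-scaled totals of all 9 libraries, and log2 CPM a prior count of 2. Each comparison was fitted with edgeR 4.0.16 (R 4.3.3) by its two-sided quasi-likelihood test on the 6 libraries compared, after TMM and filterByExpr, with p adjusted by Benjamini-Hochberg. A call needed an adjusted p under 0.05 with a log2 fold change of at least 1 in size. Alternatives were RLE factors, library totals, DESeq2 1.42.0, voom of limma 3.58.1, other filters, all 9 libraries, the replicate block and libraries left out. Exact tests listed all permutations under Python 3.11.15 with pandas 2.3.3, with ranks from scipy 1.17.1, and plots used matplotlib 3.10.9. Annotation and coding sequences were GENCODE M21 and promoters RefSeq, both on GRCm38, and 21894 genes of the table matched. The annotation behind the counts was not the same for every gene. Slc30a10 has 5836 exonic bases in GENCODE M21 and a length of 6508 in the count table, so the overlap shares are those of GENCODE M21 only.

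All 7 genes were named, with the 3 genes most like each, and genes of fixed metal, acute phase and glucocorticoid lists with an unadjusted p under 0.05 or groups apart, of which the text gives those of metal handling by name and the others mainly as counts. Members and lists were chosen with earlier results of these data known, and the overlaps, sequences and windows were looked at after the counts of Mt2. Deviations of same-numbered libraries of hADMSCs-Exo and LFG had r = 0.101, 0.308 and 0.180 for numbers 1 to 3, all above the limit of 0.1 used. Those of the other comparisons did not all exceed 0.1. The sample labels give no pairing and libraries of unlike number were not compared, so these values do not show that samples were paired.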

Additional observations from a re-analysis of the deposited data

How the results depend on the processing

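The log2 fold changes of the 6 tested genes kept their direction and their side of the threshold in 285 of 312 alternatives, 23 turned the sign, over 6 results, and 4 passed the threshold. Genes called for hADMSCs-Exo over REG, hADMSCs-Exo over LFG and REG over LFG, 1, 0 and 0 with all libraries, were 67, 60 and 239 by DESeq2, 3, 1 and 1285 by limma with voom, and 266, 374 and 537 at an unadjusted p with the limit on fold change. With all 9 libraries in one fit the first 2 counts were 0 and 1, and without the filter on low counts the first was 4. With 1 library left out, or LFG 3 and a further one (chosen after seeing the data), they were 0 to 1, 0 to 833 and 0 to 1736. Members called were 0 for hADMSCs-Exo over REG, 0 to 1 over LFG and 0 to 1 for REG over LFG in those leave-outs, and 1 in each comparison with LFG (Mt1) at an unadjusted p with the limit on fold change. Members with an unadjusted p under 0.05 were 0 to 1, 1 to 2 and 0 to 3 in the leave-outs. Without LFG 3 and REG 3, which gave 3 members for REG over LFG, 4292 of 12877 genes had one. For hADMSCs-Exo over REG with all 9 libraries in one fit it was 0 members, beside 484 of 12760 genes. By voom it was 3 members in each comparison with LFG, beside 3506 of 12489 genes for hADMSCs-Exo and 5256 of 12517 genes for REG. Members with groups apart were 1 to 2, 2 to 4 and 1 to 3 with 1 library left out. Of all genes tested, 24.7%, 29.0% and 29.9% stood apart where the first count was 2 (without hADMSCs-Exo 2, REG 1 or REG 3), 19.5% where the second was 4 (without hADMSCs-Exo 2), 28.2% and 24.3% where the third was 3 (without REG 3 or LFG 2), and 48.0% and 55.1% in the comparisons with LFG without LFG 3. The count was 0 for REG over LFG under library totals (17.1% of all genes). Signs turned for Slc39a14 in hADMSCs-Exo over REG (0.014 under library totals, 0.046 by voom, -0.16 to 0.072 in the leave-outs), for Slc39a8 in hADMSCs-Exo over LFG (-0.063 under library totals, -0.038 to 0.16), for Slc30a10 (-0.63 to 0.37 and, in REG over LFG, -0.15 to 0.79), and for Slc39a4 (-0.61 to 0.42 and, in REG over LFG, -0.051 under library totals, -0.12 by voom, -0.36 to 0.68). The causes were not tested. With the replicate block, which pairs libraries by number, the value of Mt1 was 1.96 and that of Slc30a1 0.97 for hADMSCs-Exo over LFG, 0 members were called in each comparison, and no call changed. With 3 libraries a group, exact tests cannot go below 0.1. Mt2, listed with 0 or 1 counts, entered no test, and the cause of its low counts was not tested.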
